A study of Mus musculus with 6 samples.

Results

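The mitochondrially encoded RNAs of BM Tregs were examined in 3 CML and 3 naive mice. Features were chosen by name alone, as the protein-coding genes ND1 to ND6, ND4L, COX1 to COX3, ATP6, ATP8 and CYTB and the tRNA features named Trn with an amino acid letter. The rule found 35 of the 36930 features in the tables, namely all 13 protein-coding genes and all 22 tRNA genes that GENCODE M21 places on the mouse mitochondrial chromosome (GRCm38, chrM). The 12S and 16S rRNA genes, Rnr1 and Rnr2, are in the tables too but carry other names, and they are given only for comparison. All 6 mice carried the Foxp3-DTR-GFP allele, which places GFP and a diphtheria toxin receptor under control of Foxp3, and were at post natal week 8. CML was induced by i.v. injection of LSKs, a stem and progenitor fraction, that had been transduced with a BCR-ABL1-GFP retrovirus. The recipients were syngeneic and not irradiated, so they kept their own hematopoiesis, and their Tregs were taken at day 15 after induction. Naive mice carried no leukemia. GFP marks both the Foxp3 allele and the retrovirus, and Tregs were purified by FACS before RNA extraction. Each library came from 1 mouse.

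RNA was amplified with the SMART-Seq v4 kit and sequenced in single reads of 76 bases. The deposited values were used as RPKM, that is, reads divided by the length of the feature and the total of the library. Multiplied by the GENCODE length of the feature, the values of the selected features fell within 0.05 of whole multiples of a fixed step. This held in every case checked, with ATP6 and ATP8 taken as a sum. The step, which was chosen for the best fit to these same features, gave the reads behind each value. Rnr1 and Rnr2, which were not used to choose it, lay up to 0.11 of a read from whole numbers. Total reads were 7613441, 829201 and 2286146 in CML replicates 1, 2 and 3, and 5188377, 8771716 and 9751230 in naive replicates 1, 2 and 3. CML replicate 2 was the shallowest library, and 5 LOC features held 36.1% of its summed RPKM, compared with 4.35% and 10.1% in the other CML libraries and 1.31% to 2.95% in naive libraries. The 12 Treg and T cell markers, Foxp3 among them, were all present and summed to between 3152 and 4439 RPKM in CML and between 3409 and 3870 RPKM in naive libraries. Erythroid markers, of which 10 of 12 were in the tables, summed to between 41.8 and 252.8 RPKM in CML and between 5.93 and 31.6 RPKM in naive libraries. Stem and progenitor markers summed to between 6.80 and 8.77 RPKM in CML and between 2.57 and 3.93 RPKM in naive libraries, with Hoxa9 and Mecom at 0 in all 6. Those 2 sums did not overlap between groups. Among the stem and progenitor markers, only Gata2 was higher in every CML library. It held 8.36 of the 8.77 RPKM in CML replicate 2. Kit, Cd34 and Meis1 overlapped between groups, so the stem and progenitor sum does not show a difference shared by the list. The 12 neutrophil and granulocyte markers, with Mmp8 and Retnlg at 0 in all libraries, summed to 12, 212.7 and 232.9 RPKM in CML replicates 1, 2 and 3 and to between 32.6 and 54.5 RPKM in naive libraries, so CML replicate 1 lay below and the other CML libraries above the naive range. The sums of B cell, monocyte and CD8 T or NK cell markers overlapped, and the part of other cells in the results was not tested. In bulk RNA, fewer cells of a type and less RNA per cell cannot be told apart.

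Mitochondrial DNA is a small circle present in many copies per cell. Its genes are transcribed from both strands as long RNAs, from which the tRNAs are cut at their ends, releasing the mRNAs and rRNAs that lie between them. The mRNAs encode the hydrophobic core subunits of complexes I, III and IV of the respiratory chain and of the ATP synthase, complex V, while all other subunits come from the nucleus and are imported. In T cells, respiration is known to rise with activation, and Tregs are known to rely on it for their suppressive function. Mature tRNAs carry no long poly(A) tail and are shorter than the reads used here (59 to 75 bases against 76), so a full-length read assigned to a tRNA must also cover a neighboring gene or spacer.

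The sequences of 5 tRNA genes are shown because the tRNA results turn on them. TrnE, TrnV and TrnS1 held most tRNA reads, TrnW was the only member past the test of CML against naive Tregs, and TrnA is the neighbor of TrnW on the other strand. They are taken from the GRCm38 mitochondrial chromosome and written 5′ to 3′ on the strand of the tRNA. Capitals mark bases that the tRNA gene shares with the annotated end of the neighboring protein-coding gene, ND2 for TrnW and COX1 for TrnS1.
TrnW, tryptophan, chrM:4950-5016, plus strand: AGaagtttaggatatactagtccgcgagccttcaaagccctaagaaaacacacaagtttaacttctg
TrnA, alanine, chrM:5018-5086, minus strand: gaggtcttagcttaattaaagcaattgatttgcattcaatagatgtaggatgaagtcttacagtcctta
TrnE, glutamate, chrM:14071-14139, minus strand: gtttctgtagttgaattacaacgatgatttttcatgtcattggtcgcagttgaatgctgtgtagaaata
TrnV, valine, chrM:1025-1093, plus strand: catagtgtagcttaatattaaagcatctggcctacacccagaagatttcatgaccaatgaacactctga
TrnS1, serine, chrM:6870-6938, minus strand: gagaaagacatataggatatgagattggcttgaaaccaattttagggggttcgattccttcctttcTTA

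The mitochondrial mRNAs were abundant, and their order of abundance was nearly the same in the 6 mice. COX1, the catalytic core of cytochrome c oxidase, was the highest in every library. Its level was 3899, 2341 and 2601 RPKM in CML and 3178, 3220.3 and 3596 RPKM in naive replicates 1 to 3. ND3, a small membrane subunit of complex I, was the lowest in every library, and COX1 exceeded it between 19.0 and 33.0 times. By mean RPKM over the 6 libraries, the order was COX1, CYTB, ATP6, ATP8, ND1, ND6, ND5, COX2, ND4, ND2, COX3, ND4L and ND3. Of the 13 mRNAs, 7 held the same rank in all libraries, and Spearman's rho of the levels between any pair of libraries was between 0.98 and 1 (15 pairs, across genes, which are not independent replicates). Neighbors in this order were not always distinct. CYTB exceeded ATP6 in only 3 of 6 libraries, with a mean log2 ratio of 0.04 ± 0.09 (SD, n = 6), and ND5 exceeded COX2 in 4 of 6, with a mean log2 ratio of 0.08 ± 0.16 (SD, n = 6). ATP8 exceeded ND1 in 5 of 6 libraries, whereas each of the other neighbors kept its order in all 6. Across the 13 genes, the mean level had a Spearman's rho of 0.13 with GC content, 0.30 with gene length and -0.08 with position along the chromosome, given as a description only.

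**Figure D1:**
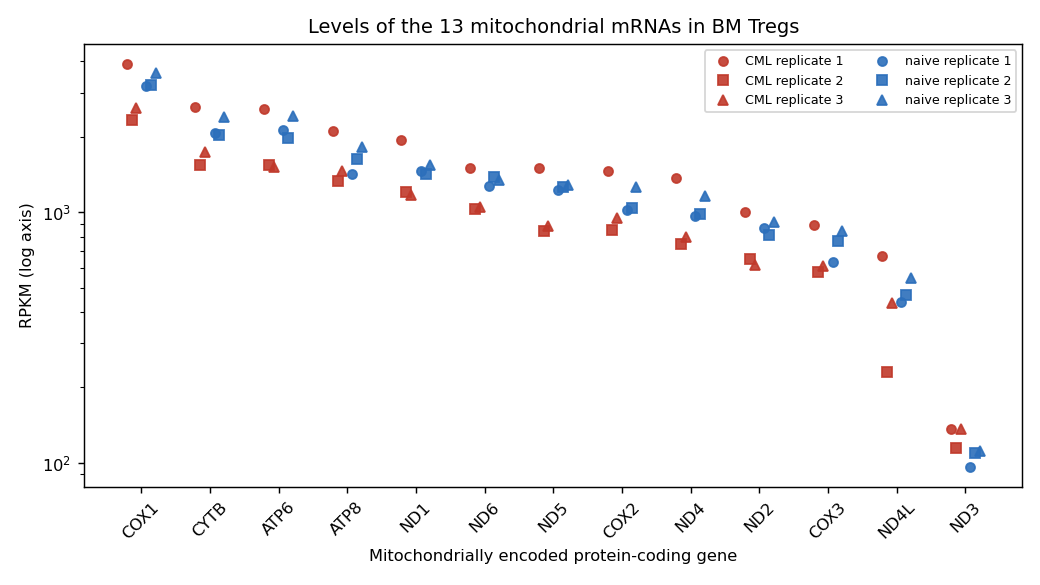
RPKM (log axis) of the 13 mitochondrial mRNAs in each of the 6 libraries, with CML in red and naive in blue and 1 point for each mouse. CML replicate 1 lies above the naive libraries and CML replicates 2 and 3 below them for most genes, and ND3 is the gene in which the CML points lie above the naive points.

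Between CML and naive Tregs, no mitochondrial mRNA passed the test. With limma on log2(RPKM + 1), adjusted by Benjamini-Hochberg over 13923 features with a mean of at least 1 RPKM, adjusted p of the 13 mRNAs ran from 0.590 to 0.984. At an unadjusted p under 0.05, the count was also 0. Among all features tested, 24 were called at an adjusted p under 0.05 and a fold of at least 1.5, which is 0.172%, and 9.68% had an unadjusted p under 0.05 at any fold. The log2 difference of CML minus naive was below 0 for 12 of 13 mRNAs on the deposited scale, but for 9 after quantile normalization, 10 after scaling to a common 75th percentile and 7 after scaling to a common sum over other features. Their median was -0.17, against -0.18 over all features tested, with 7 mRNAs above and 6 below the latter. The 95% interval of each of the 13 differences included 0, and together these intervals spanned -1.04 to 0.65 on the log2 scale.

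The CML libraries spread on both sides of the naive libraries for most mRNAs. CML replicate 1 was the highest of the 6 libraries for 12 of 13 mRNAs, and the lowest value of these 12 was in CML replicate 2 or 3. For 11 of 13, all 3 naive libraries lay between CML replicate 1 and the other CML libraries. The summary over the list followed the same libraries. Without CML replicate 1 the median log2 difference was -0.40 and 5 of 13 mRNAs (ATP6, ND2, ND4, ND5 and ND6) had an unadjusted p under 0.05 by limma. Over all features the share past that p was 13.6% in this fit, up from 9.68%, so the share among the mRNAs was the larger. The 13 mRNAs shared the pattern of the libraries and are not independent. Without CML replicate 2 the median was -0.0076. The neutrophil marker sum split the CML libraries the same way, with 12 RPKM in CML replicate 1 and 212.7 and 232.9 RPKM in the other 2, and its part in the mRNA levels was not tested. None of the 13 was called in any of 17 settings.

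Complex I receives 7 of the 13 proteins. ND1, ND2, ND4 and ND5 build the proton-pumping membrane arm together with ND3, ND4L and ND6. ND5, the largest of them, was at 1495, 839.7 and 880.1 RPKM in CML and at 1228, 1256 and 1282 RPKM in naive Tregs. The naive values lay close together, and the CML values lay on both sides of them (1072 ± 367 against 1255 ± 26.8 RPKM, SD, n = 3; log2 difference -0.28, 95% interval -0.81 to 0.25). ND1 was at 1442 ± 439 RPKM in CML and 1477 ± 65.0 RPKM in naive Tregs (SD, n = 3). For ND4 these values were 969.0 ± 343 and 1039 ± 105, and for ND2 756 ± 211 and 861 ± 52.9. ND6 is the only protein encoded on the other strand of the circle. It was at 1506, 1029 and 1047 RPKM in CML and at 1277, 1377 and 1350.0 RPKM in naive Tregs, again with the naive libraries between the CML libraries. The ND6 gene overlaps the end of ND5 by 14 bases, and as strandedness of the counting is not given in the sources used here, ND6 reads and reads of the RNA opposite to it cannot be told apart.

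ND3 was the exception among the mRNAs. Its level was 136.6, 114.4 and 137.0 RPKM in CML and 96.4, 109.4 and 111.1 RPKM in naive Tregs. Each CML library thus exceeded each naive library, with the smallest gap between CML replicate 2 and naive replicate 3. The means were 129 ± 13 and 106 ± 8.06 RPKM (SD, n = 3), and the log2 difference was 0.29 (95% interval -0.07 to 0.65, SE 0.16, adjusted p = 0.590 by limma). A 2-sided exact permutation test, with 20 possible assignments, gave p = 0.1, the smallest that 3 mice against 3 allow. The difference stayed above 0 under all 16 alternatives. It rests on 362, 33 and 109 reads in CML and 174, 334 and 377 reads in naive libraries, and the 95% Poisson interval of CML replicate 2, 78.7 to 161 RPKM, covers the 3 naive values. Over all features, 4.84% had every CML library above every naive library and 17.1% did not overlap in one direction or the other, and 2 of the 28 mitochondrial features tested, ND3 and TrnW, did not overlap.

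Complex III receives 1 mitochondrial protein and complex IV receives 3. CYTB, a heme-bearing subunit of complex III, was at 2635, 1542 and 1747 RPKM in CML and at 2067, 2041 and 2402 RPKM in naive Tregs. The naive libraries lay inside the CML range (log2 difference -0.17, 95% interval -0.68 to 0.34). COX1 and COX2 carry the metal centers of complex IV, and COX3 is a structural subunit beside them. COX1 was at 2947 ± 835 RPKM in CML and 3332 ± 230.0 RPKM in naive Tregs (SD, n = 3; log2 difference -0.21). COX2 differed by -0.06 and COX3 by -0.12 on the log2 scale, and COX2 moved above 0 under each of the 3 other scalings. Expressed as a share of the summed RPKM of the 13 mRNAs, which is unaffected by the total of a library, COX1 held 18.0%, 18.0% and 18.6% in CML and 18.9%, 18.8% and 18.7% in naive Tregs. These shares did not overlap, but the difference of the means was only -0.62 percentage points.

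ATP8 and ATP6 are read from a common mRNA in shifted frames and encode a peripheral stalk subunit and the proton channel of ATP synthase. The genes overlap, and in 3 of 6 libraries (CML replicate 1 and naive replicates 2 and 3) the read numbers of ATP6 and ATP8 were not whole while their sum was. In CML replicate 1, for example, they were 13417.55 for ATP6 and 3276.45 for ATP8. In the other 3 libraries both numbers were whole, such as 875 and 225 in CML replicate 2. The junction is shown with the 43 shared bases in capitals, which open with the ATP6 start codon ATG and close with the ATP8 stop codon TAA, next to the ND4L and ND4 junction, where 7 bases are shared in the same way.
ATP8 and ATP6, chrM:7907-7989, plus strand: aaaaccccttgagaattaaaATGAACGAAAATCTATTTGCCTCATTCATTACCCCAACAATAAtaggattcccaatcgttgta
ND4L and ND4, chrM:10147-10193, plus strand: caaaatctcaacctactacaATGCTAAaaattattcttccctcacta

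ATP6 was at 2588, 1549.5 and 1518 RPKM in CML and at 2122, 1985 and 2413 RPKM in naive Tregs, and ATP8 at 2110, 1330.1 and 1462 RPKM and at 1425, 1629 and 1829 RPKM. Both groups overlapped for either gene, with log2 differences of -0.25 for ATP6 (95% interval -0.79 to 0.29) and -0.02 for ATP8 (95% interval -0.50 to 0.47). The ratio of ATP8 to ATP6 was 0.815, 0.858 and 0.963 in CML and 0.671, 0.821 and 0.758 in naive Tregs, with CML replicate 1 inside the naive range. As a share of the 13 mRNAs, ATP8 held 9.72%, 10.2% and 10.5% in CML and 8.49%, 9.52% and 9.50% in naive Tregs. This share did not overlap between groups (10.1% ± 0.38 against 9.17% ± 0.59, SD, n = 3). Among the 13 shares, those of ATP8 (higher in CML) and COX1 (lower in CML) were the 2 without overlap. In RPKM, 17.1% of all features tested did not overlap in one direction or the other. The ATP8 share also depends on how reads in the 43 bases shared with ATP6 were divided, and the part of this was not tested. ND4L, which shares its mRNA with ND4, was the least even of the mRNAs, at 669, 231 and 436 RPKM in CML and 437, 469 and 546 RPKM in naive Tregs. CML replicate 2, with 57 reads on ND4L, was the lowest, and its ratio of ND4L to ND4 was 0.311, compared with 0.451 to 0.546 in the other 5 libraries. The cause was not tested. Of the 13 genes, 3 (COX3, ND4 and CYTB) end in an incomplete stop codon in the annotation, a single t, which is known to be completed to a stop codon by the poly(A) tail.

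**Figure D2:**
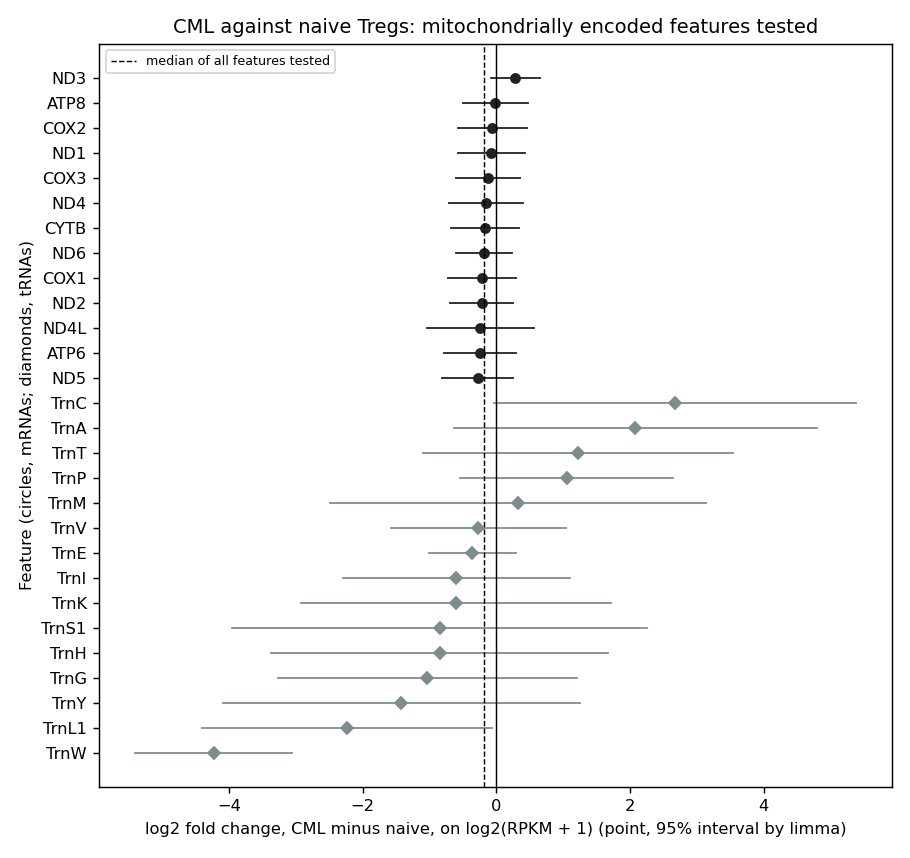
Log2 difference of CML minus naive (limma on log2(RPKM + 1), point with 95% interval) for the 13 mRNAs (circles) and 15 tRNA features (diamonds) that were tested, with the median of all features as a dashed line at -0.18. The intervals of all mRNAs include 0, those of most tRNA features are several times wider, and the interval of TrnW lies farthest below 0.

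tRNA features were read at the limit of detection. Together they held 502 reads in the 6 libraries, against between 10591 and 186378 reads on the mRNAs of a single library. TrnE alone held 215 of them (42.8%), and TrnE, TrnV and TrnS1 held 335 (66.7%). Reads lay on TrnE, TrnV and TrnP in all 6 libraries, on 16 tRNA features in some of them and on TrnD, TrnS2 and TrnL2 in none. A count of 0 allows up to 3 reads, so these were not detectable at this depth. The 3 features with most reads differ in their neighbors. TrnV lies between Rnr1 and Rnr2, TrnE between ND6 and CYTB, with 5 bases to the latter, and TrnS1 at the end of COX1 on the other strand. Features on the minus strand, TrnE, TrnS1 and TrnA among them, held 329 of the 502 tRNA reads. As for ND6, these reads and reads of the RNA opposite to them cannot be told apart.

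TrnE had 41, 5 and 9 reads in CML and 32, 82 and 46 reads in naive libraries. In RPKM these were 78.0, 87.4 and 57.1 in CML and 89.4, 135 and 68.4 in naive Tregs, and the groups overlapped (log2 difference -0.36, 95% interval -1.01 to 0.29, adjusted p = 0.695 by limma). TrnV, with 12 reads in CML and 45 in naive libraries, differed by -0.27 on the log2 scale (adjusted p = 0.889 by limma). TrnS1 had 33, 1 and 0 reads in CML and 13, 8 and 8 in naive libraries. CML replicate 1 was thus the highest library and CML replicate 3 the lowest, and the log2 difference was -0.85 (95% interval -3.95 to 2.26).

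**Figure D3:**
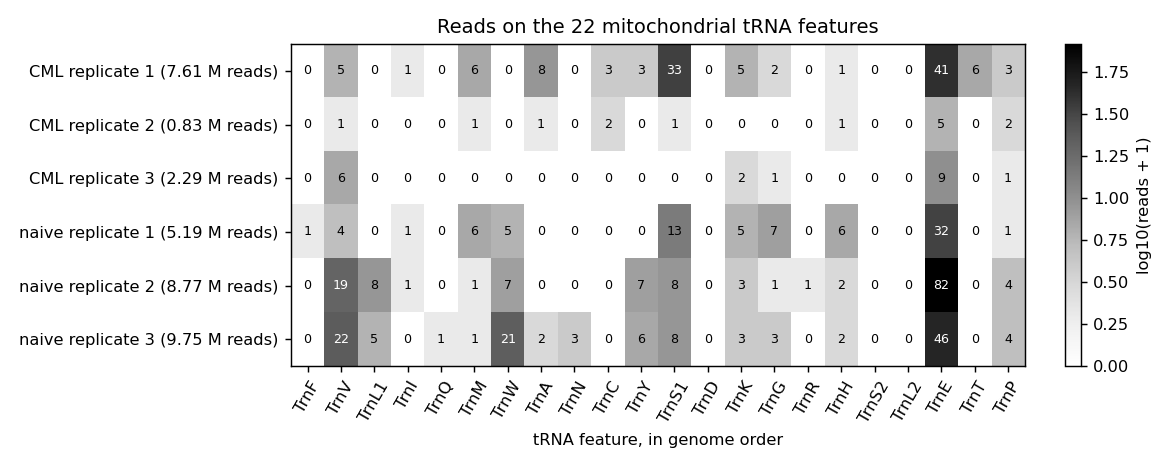
Reads on each of the 22 tRNA features (columns, in genome order) in each library (rows, labelled with their total reads), with the shade giving log10(reads + 1). Most cells hold fewer than 10 reads, TrnE is the darkest column, and TrnW holds reads in the 3 naive libraries and none in the 3 CML libraries.

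The number of tRNA features with reads was smallest in the 2 shallowest libraries. It was 13, 8 and 5 in CML and 11, 13 and 14 in naive libraries, or 8.67 ± 4.04 against 12.7 ± 1.53 (SD, n = 3). Thinned to the reads of CML replicate 2, the expected number was 5.75, 8 and 3.23 in CML and 6.04, 5.09 and 5.46 in naive libraries. The means were then 5.66 ± 2.38 and 5.53 ± 0.48 (SD, n = 3), an alternative chosen after the values were seen. Scaled to the total reads of the library as RPM, without division by length, all tRNA features together were at 15.4, 16.9 and 8.31 in CML and at 15.6, 16.4 and 13 in naive libraries. CML replicate 3 was the lowest, with a 95% Poisson interval of 5.0 to 13 RPM, and the other 5 libraries lay close together. Poisson and binomial intervals cover counting error only, since the reads were amplified and carry no molecular identifiers.

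TrnW was the only mitochondrial feature called (1 of 28 tested, lower in CML, against 0.129% of all features called lower and 0.0431% called higher). It had no reads in the 3 CML libraries and 5, 7 and 21 reads in naive replicates 1, 2 and 3. In RPKM, it was 0 in CML and 14.4, 11.9 and 32.1 in naive Tregs, and limma gave an adjusted p of 0.0356 with a log2 difference of -4.23 (95% interval -5.40 to -3.06). That fold depends on the pseudocount, and the 3 identical zeros leave the CML group without spread. TrnW also passed the filter of 1 RPKM only through the naive libraries, and without the filter the adjusted p was 0.149. Pooled over the libraries, 33 naive reads correspond to 1.39 RPM (95% Poisson interval 0.958 to 1.95). The floor of 3 reads over the CML group corresponds to 0.280 RPM, and the naive point value is 4.98-fold above it. By Poisson intervals, 0 CML reads allow up to 0.344 RPM, so counting error alone permits a smaller fold than this. The ratio also leaves out the spread between mice and rests on single libraries. It falls to 1.45-fold without CML replicate 1, which holds most of the CML reads. Without naive replicate 3, which holds 21 of the 33 naive reads, it is 3.07-fold. A floor of 3 reads corresponds to 5.88 RPKM in CML replicate 1, to 54.0 RPKM in CML replicate 2, which exceeds all 3 naive values, and to 19.6 RPKM in CML replicate 3, which exceeds 2 of them. The call was lost in 9 of 15 alternatives, among them each library left out in turn, and the adjusted p ran from 0.0281 to 0.239 over the alternatives. With the replicate number as a block it was 0.127.

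TrnW belongs to a cluster of 5 tRNA genes between ND2 and COX1, whose other members had between 0 and 8 reads in a library. Whether their patterns differ from that of TrnW was not tested. TrnA, on the opposite strand, had 8, 1 and 0 reads in CML and 0, 0 and 2 in naive libraries. TrnC had 3, 2 and 0 reads in CML and none in naive libraries, whereas TrnN had 3 reads in naive replicate 3 and none elsewhere. TrnY had 3, 0 and 0 reads in CML and 0, 7 and 6 in naive libraries. None of these 4 was called, and TrnN was too low to be tested. The whole cluster had 1.84, 3.62 and 0 RPM in CML and 0.964, 1.60 and 3.28 RPM in naive libraries, and the groups overlapped (1.82 ± 1.81 against 1.95 ± 1.20, SD, n = 3). This sum was formed after the values were seen.

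Of the remaining tRNA features tested, TrnL1 had an unadjusted p of 0.0451 by limma (adjusted p = 0.505), with 0 reads in each CML library and 0, 8 and 5 in naive libraries. Its zero in naive replicate 1 places the groups in overlap. With TrnW, TrnL1 made 2 of 28 members at an unadjusted p under 0.05, or 7.14%, against 9.68% of all features. Both had no CML reads and passed the filter of 1 RPKM only through the naive libraries, so neither p is support for a difference. TrnT had 6 reads in CML replicate 1 and none elsewhere. In the same way, TrnT and TrnC passed the filter only through CML libraries. TrnM had 6, 1 and 0 reads in CML and 6, 1 and 1 in naive libraries, and TrnP 3, 2 and 1 against 1, 4 and 4. TrnG, TrnH, TrnI and TrnK also overlapped between groups, with at most 7 reads in a library, and TrnF, TrnQ and TrnR had 1 read each in all. Over the 15 tRNA features tested, 10 log2 differences were below 0 and 5 above, with a median of -0.60 against -0.18 over all features tested. This median was also below 0 under each other scaling, but it is the value of TrnI, which had 3 reads in all. TrnI had 1, 0 and 0 reads in CML and 1, 1 and 0 in naive libraries. Pooled, these were 0.093 RPM in CML and 0.084 RPM in naive libraries, so the sign depends on zeros in single libraries. No tRNA feature other than TrnW was called in any setting.

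The share of reads on mitochondrial RNA differed between libraries more than between groups. The 13 mRNAs held 2.15%, 1.28% and 1.37% of reads in CML and 1.69%, 1.71% and 1.91% in naive libraries. CML replicate 1 was the highest and the other CML libraries the lowest, and counting error was small (95% binomial interval by Clopper-Pearson of 1.25% to 1.30% in CML replicate 2). Rnr1 and Rnr2, which lie outside the selection, held 17.0%, 10.8% and 11.7% in CML and 12.6%, 14% and 15.7% in naive libraries. Their reads per mRNA read were 7.93, 8.47 and 8.55 in CML and 7.44, 8.21 and 8.20 in naive libraries, an overlapping range, although rRNAs and mRNAs both moved with the library. The 2 libraries with the fewest reads had the lowest shares on mRNAs and on rRNAs. The part of depth was not tested. As a share of summed RPKM, all 35 features held 2.24% ± 0.83 in CML and 2.59% ± 0.27 in naive Tregs (SD, n = 3). Without the 5 LOC features in the denominator, these were 2.66% ± 0.62 and 2.64% ± 0.26, so the sign of the difference turned from -0.36 to 0.02 percentage points.

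**Figure D4:**
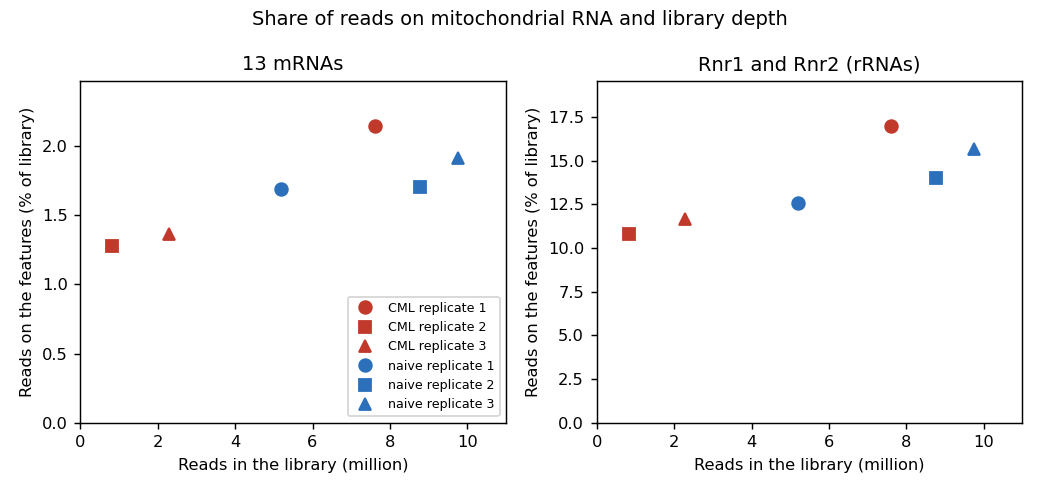
Share of each library's reads (%) on the 13 mRNAs (left) and on Rnr1 and Rnr2 (right) against the total reads of the library, with CML in red and naive in blue. CML replicates 2 and 3 have the fewest reads and the lowest shares, and CML replicate 1 has the highest shares of the 6 libraries.

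The nuclear genes of the same complexes were compared because each complex needs both sets. Of the nuclear-encoded subunits of complexes I, III, IV and V, 74 were tested and 0 were called, with 5 at an unadjusted p under 0.05 by limma, or 6.76% against 9.68% of all features (limma alone was run on these values). The groups did not overlap for 8 of the 74, or 10.8%, against 17.1% of all features. Their log2 differences were above 0 for 29 and below 0 for 45, with a median of -0.10. By complex, the median was -0.16 over 36 subunits of complex I, -0.01 over 9 of complex III, 0.19 over 12 of complex IV and -0.09 over 17 of complex V, and after scaling to a common sum those of complexes III and V turned to 0.15 and 0.07. Complex II, which has no mitochondrially encoded subunit, had 3 of 4 genes below 0, with a median of -0.13 that turned to 0.01 under that scaling. The mean log2(RPKM + 1) of the mitochondrial mRNAs exceeded that of the nuclear subunits by 4.90, 4.53 and 4.15 in CML and by 4.49, 4.40 and 4.84 in naive Tregs. These differences overlapped between groups (4.53 ± 0.38 against 4.58 ± 0.23, SD, n = 3). Among single subunits, Ndufb3 of complex I was at 16.3, 15.3 and 20.8 RPKM in CML and 31.8, 35.1 and 22.8 RPKM in naive Tregs (log2 difference -0.73, adjusted p = 0.439 by limma). Of complex V, Atp5h and Atp5l, both subunits of its membrane and stalk parts, were lower in every CML library (log2 differences -0.66 and -0.88), and Atp5f1, of the peripheral stalk, was higher in every CML library (0.57). Cyc1, the cytochrome c1 of complex III, and Cox5b of complex IV were higher in every CML library as well (0.44 and 0.23). Adjusted p of these 5 genes ran from 0.404 to 0.702 by limma.

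**Figure D5:**
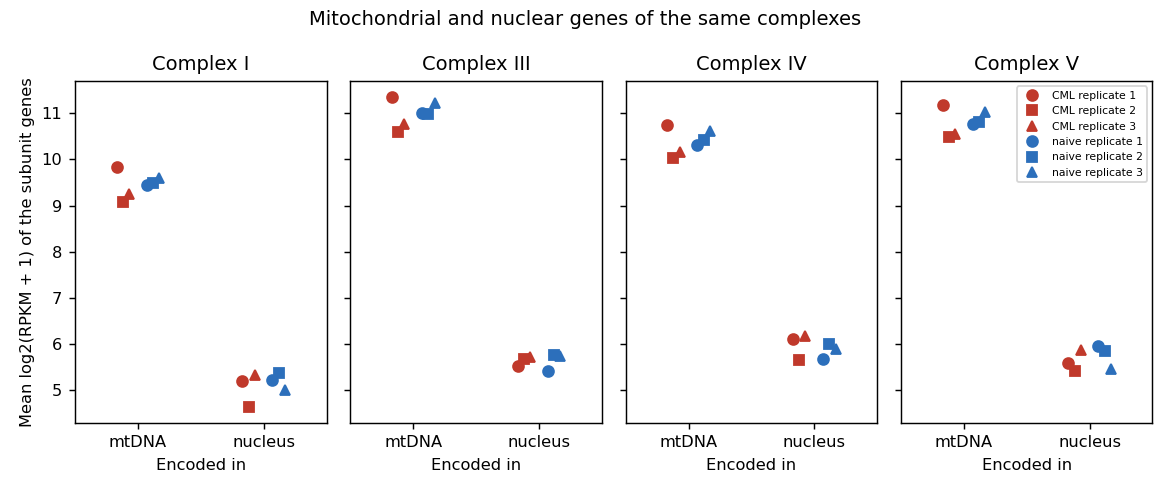
Mean log2(RPKM + 1) of the mitochondrially and nuclear-encoded subunits of complexes I, III, IV and V in each library, with CML in red and naive in blue. In each complex the mitochondrial genes lie higher than the nuclear genes in all 6 libraries, and the CML and naive points overlap.

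Genes that maintain, transcribe and process mitochondrial nucleic acids had log2 differences below 0 for most members of several lists, without any call. The median over all features tested was -0.18, so most features lay below 0 as well. Of 168 genes tested in all context lists, 0 were called by limma and 16 had an unadjusted p under 0.05, which is 9.52%, near the 9.68% of all features. The medians of the lists for transcription, replication, aminoacyl-tRNA synthetases and tRNA maturation were also below 0 under the other 3 scalings, under which the median of all features was below 0 as well (-0.0068 to -0.12). After quantile normalization, 8 of 10, 6 of 11, 14 of 22 and 11 of 18 genes of these lists were below 0, in that order. The sizes of these medians moved with single libraries and with the filter. With 1 library left out, the replication median ran from -0.50 (without CML replicate 3) to -0.05 (without naive replicate 1). At a mean of at least 10 RPKM, 3 transcription genes remained, with a median of -0.28, while that for tRNA maturation was -0.33. Read numbers were not recovered for the genes of these lists. Many of the genes were at a few RPKM, and the part of the low depth of CML replicates 2 and 3 was not tested. In the list for mitochondrial transcription, 9 of 10 log2 differences were below 0, with a median of -0.66, against -0.18 over all features. Tfam, which packages mitochondrial DNA and starts its transcription, was at 38.4, 47.6 and 19.5 RPKM in CML and 51.9, 51.6 and 46.5 RPKM in naive Tregs. CML replicate 2 was inside the naive range for Tfam. Tfb2m, a factor of the mitochondrial RNA polymerase, was at 5.20, 1.30 and 3.40 RPKM in CML and 6.65, 15.7 and 8.73 RPKM in naive Tregs, without overlap (log2 difference -1.44, SE 0.53, adjusted p = 0.446 by limma). Mterf1a, a transcription termination factor, did not overlap either (-0.73), whereas the polymerase Polrmt did, at 9.90, 12.2 and 10.5 RPKM against 14.5, 11.4 and 14.4 RPKM.

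The list for replication and nucleotide supply had 8 of 11 log2 differences below 0 (median -0.30), and 4 of the 11 genes (36.4%) were lower in every CML library, against 12.2% of all features. Polg2, the accessory subunit of the mitochondrial DNA polymerase, was at 13.5 ± 3.97 RPKM in CML and 27.7 ± 5.66 RPKM in naive Tregs (SD, n = 3; log2 difference -1.01, adjusted p = 0.342 by limma). Dguok, which supplies purine nucleotides for mitochondrial DNA, was at 14 ± 4.80 and 27.7 ± 3.71 RPKM (-0.98, adjusted p = 0.358 by limma). Mgme1, a mitochondrial exonuclease, was at 1.16, 0 and 0 RPKM in CML and 3.41, 9.08 and 3.73 RPKM in naive Tregs (adjusted p = 0.282 by limma). Its zeros are in CML replicates 2 and 3, the libraries with the fewest reads. Mgme1 also passed the filter of 1 RPKM only through the naive libraries, so a lower level and a value under detection cannot be told apart. Among 20 genes of RNA processing and decay, 11 were below 0, with a median of -0.11 that turned to 0.04 after scaling to a common sum. Mtpap, the mitochondrial poly(A) polymerase, was the clearest of them, at 15.4, 15.1 and 11.4 RPKM in CML and 27.5, 24.9 and 23.0 RPKM in naive Tregs (-0.81, SE 0.25, adjusted p = 0.354 by limma). Fastkd1 and Ptcd1, RNA-binding proteins of mitochondria, did not overlap either (-1.07 and -0.69). Lrpprc, which stabilizes mitochondrial mRNAs, was at 20.6, 10.7 and 23.3 RPKM in CML and 20.4, 21.0 and 23.6 RPKM in naive Tregs, and CML replicate 2 was the one low library.

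Of the mitochondrial aminoacyl-tRNA synthetases, 16 of 22 were below 0, with a median of -0.37 and 4 (18.2%) lower in every CML library, against 12.2% of all features. Rars2, the arginine enzyme, was at 11.3, 5.18 and 12.9 RPKM in CML and 26.8, 14.6 and 18.6 RPKM in naive Tregs (log2 difference -1.0). Pars2 and Ears2, the proline and glutamate enzymes, differed by -1.16 and -0.93. Among genes of tRNA maturation and modification, 15 of 18 were below 0, with a median of -0.29. Mtfmt, which formylates the initiator methionine tRNA, was at 9.39, 5.19 and 6.03 RPKM in CML and 15.4, 19.1 and 15.5 RPKM in naive Tregs, so every naive library lay well above every CML library (-1.20, SE 0.34, adjusted p = 0.301 by limma). Nsun2, a tRNA methyltransferase, differed by -0.51. Regulators of mitochondrial biogenesis showed no common direction, with 3 of 9 tested above 0 and a median of -0.02, or 0.12 after scaling to a common sum. Nrf1, a transcription factor for nuclear genes of respiration, was at 35.8, 37.1 and 51.3 RPKM in CML and 45.8, 29.7 and 39.9 RPKM in naive Tregs. Myc was at 21.2, 17.7 and 21.2 RPKM in CML and 34.0, 27.1 and 21.0 RPKM in naive Tregs, and both genes overlapped between groups. Pprc1 and Gabpb2 were lower in every CML library (-0.44 and -0.34), and Ppargc1a stayed below 1 RPKM on average and was not tested.

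The features whose levels followed the summed mitochondrial mRNAs most closely were Ggnbp2 (Pearson's r = 0.985), Trav13-1 (0.984), Tex261 (0.982), Gfpt1 (0.979) and Ahctf1 (0.979), out of 7836 features with a mean of at least 10 RPKM. These values are a description over 6 libraries, which share depth and group, and carry no p. The pattern that they follow is that of the libraries rather than of the groups. Gfpt1, the first enzyme of hexosamine synthesis, for example, was at 38.3, 21.8 and 25 RPKM in CML and at 28.6, 32.7 and 35.7 RPKM in naive Tregs.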

How the data were processed

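RNA-Seq values of BM Tregs from 3 CML and 3 naive mice were used, 1 library for each mouse, grouped by the sample titles. Reads had been assembled by the authors with SeqMan NGen v.15 and normalized with ArrayStar v.15, with GRCm38 and mm10 named in the submitters' processing notes, and 1 value per feature was deposited. The unit is not given in the sources used here, and the deposited values were read as RPKM from their whole-read steps. The annotation, the strand setting and the treatment of multimapping reads are not given in the sources used here. A deposited value of 0.001 marks a feature without reads and was set to 0, and 41 repeated feature names were kept apart. The test was limma (version 3.58.1, R version 4.3.3, trended prior variance) on log2(RPKM + 1) over 13923 features with a mean of at least 1 RPKM. Changes were called at an adjusted p under 0.05 and a fold of 1.5, the thresholds of the study. Fold changes on this scale understate those of low features. Count tests were not run, as the values are not counts. Reads were recovered from GENCODE M21 lengths (GRCm38), and other steps used scipy 1.17.1, pandas 2.3.3 and numpy 2.4.6 under Python 3.11.15. The fit was tested on simulated data.

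All members of the selection are named. From 12 hand-written context lists, Tfam, Polrmt, Lrpprc, Ppargc1a, Nrf1 and Myc were always named, with up to 3 genes per list that had the largest differences among those without overlap between groups. None of 12 listed symbols for nuclear copies of mitochondrial sequence was in the tables. The members and lists were chosen with earlier results of these data known. Alternatives covered the pseudocount, the filter, the scaling, the prior variance, library weights, a replicate block and each library left out. Replicate numbers name different mice, and same-numbered libraries did not deviate together (correlations of -0.0048, -0.0016 and -0.019).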

Additional observations from a re-analysis of the deposited data

How the results depend on the processing

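The number of features called in the whole table, 24 (6 higher and 18 lower in CML), was 53 with quantile normalization (23 and 30), 53 with a common 75th percentile (21 and 32), 50 with a common sum over other features (24 and 26), 45 with library weights (17 and 28), 13 at a mean of at least 10 RPKM (6 and 7), 11 without a variance trend (0 and 11), 1 without a filter, 1 with the replicate number as a block, and between 0 and 17 with 1 library left out (10 higher and 6 lower without CML replicate 2). Quantile normalization shifted the median of all features from -0.18 to -0.0068. The 1 mitochondrial feature called lower (TrnW) became 0 with a pseudocount of 5, without a filter and with the replicate block. It also became 0 in every fit with 1 library left out. At a mean of at least 10 RPKM, TrnW fell under the filter and was not tested. No mitochondrial feature was called higher in any setting. The tRNA median of -0.60 became -1.55 with a pseudocount of 0.1, in which features at 0 weigh more. The median of the mRNAs and the difference to nuclear subunits moved by less than the spread between mice.

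Small log2 differences changed sign without being called. With a common sum, ND1 was 0.086, COX2 0.10, ATP8 0.14, COX3 0.037 and ND4 0.0089. Quantile normalization gave 0.041 for COX2, 0.020 for ATP8 and 0.11 for COX3, and a common 75th percentile gave 0.0091 for COX2 and 0.054 for ATP8. Library weights gave 0.11 for ND1, 0.095 for TrnI, 0.16 for TrnS1, 0.10 for COX2, 0.27 for TrnK, 0.11 for ATP8, 0.075 for ND4L, 0.050 for ND4 and 0.0014 for CYTB. A pseudocount of 0.1 gave -0.40 for TrnM. With 1 library left out, the ranges were -0.76 to 0.18 for TrnV, -0.31 to 0.053 for ND1, -0.47 to 1.63 for TrnM, -2.14 to 0.86 for TrnS1, -0.30 to 0.095 for COX2, -1.31 to 0.61 for TrnK, -0.22 to 0.12 for ATP8, -0.60 to 0.16 for ND4L, -0.43 to 0.011 for ND4, -2.0 to 0.12 for TrnH, -0.51 to 0.020 for Lrpprc and -0.064 to 0.24 for Nrf1. The cause was not tested. Of the tRNA features, 7 had a mean under 1 RPKM, with 0 to 3 reads in all 6 libraries together, and were not tested.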
